A study of Arabidopsis thaliana with 12 samples.

Results

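Leaves of the Arabidopsis thaliana des1-1 line were compared with wild type leaves when both had been watered with sodium sulfide (Na2S). The comparison used 6 of the 12 arrays of the series, chosen by their titles: 3 of des1 under Na2S and 3 of wild type (WT) under Na2S. The wild type was accession Col-0, and des1-1 is an insertion line in the same background. Plants grew in soil with 16 h of light and 8 h of dark for 20 days, and both groups were then watered for 10 days with Na2S, so every leaf came from a plant of 30 days. The labels give the dose as 200 mM, which is high for plants and which the arrays cannot check. The other 6 arrays hold the same genotypes watered with plain water, and they are used here to ask whether a genotype difference under Na2S also stood without it. The line is 1 insertion allele without a rescued line, so effects of DES1 and of other changes carried by the line cannot be told apart. Both genotypes received the solution, so the comparison gives the genotype difference among treated plants and not the effect of the solution.

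DES1 is a cytosolic enzyme that breaks L-cysteine down and releases sulfide. Sulfide made in the cytosol acts as a signal in leaves, where it is known to hold back autophagy, and leaves that lack the enzyme age early. Watering with Na2S supplies the product of the missing enzyme from outside, and the comparison asks which transcripts still separate the genotypes when that product is given.

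Transcripts were measured on Affymetrix ATH1 arrays, and all values below are log2 RMA values, a scale on which 1 unit is a 2-fold difference. Levels of different genes are not set against each other. Arrays of the same group had correlations of 0.9929 to 0.9975 over all probe sets (which are no replicates of each other), and array medians lay between 5.71 and 5.80. The design text calls the 3 replicates of a group biological. The annotation used here names no probe set for DES1, so its transcript is not analysed here and the label of the insertion line was not checked. The leaf label was checked on 2 mesophyll genes: RCA, Rubisco activase, had means of 14.38 in treated wild type and 14.43 in treated des1, and the antenna gene LHCB4.1 had 13.84 and 13.80. All 4 means lay above the upper quartile of every array, and these levels are a description, since the brightness of a probe set also depends on its probes. Among the 64 control probe sets 0 passed the test under Na2S and 7 under water. Of the 19 that read Arabidopsis RNA 0 had an unadjusted p under 0.05 under Na2S. Whether what moved those 7 controls had a part in the water differences given below was not tested.

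A probe set was called when its limma p, adjusted by Benjamini-Hochberg over all 22746 probe sets, was under 0.05. Under Na2S 318 of 22746 probe sets were called, 1.4%, with 133 higher in des1 (0.585%) and 185 lower (0.813%). In each of the 318 the 3 des1 values lay wholly above or wholly below the 3 wild type values, which was also true of 16.9% of all probe sets. An unadjusted p under 0.05 was found for 2586 probe sets, 11.4%. The called differences were small for the most part: their median size was 0.64 and the smallest was 0.38. A difference of at least 2-fold was reached by 10 of the higher probe sets (0.044%) and 41 of the lower ones (0.18%), and all 10 called differences beyond 2 log2 units were falls. Under water the same test called 10166 probe sets, 44.7%, with 22% higher and 22.6% lower in des1, and 3023 of them reached 2-fold, 13.3%.

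The 95% intervals say how much of the water difference could remain under Na2S. The limma interval of the difference under Na2S lay within 2-fold in either direction for 22623 probe sets (99.5%), against 18065 (79.4%) under water, with a median standard error (SE) of 0.118 in both. Of the 3023 probe sets with a 2-fold call under water, 2943 (97.4%) had an interval under Na2S that lay within 2-fold. A 2-fold call under Na2S in the same direction was found for 24 of them, and in the opposite direction for 11. Thus a large genotype difference under water was seldom paired with a large one under Na2S, and the exceptions run in both directions.

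The 318 calls were of 3 kinds when set beside the water comparison. The 2 differences come from different arrays, but both tests take their error from a common limma fit. A probe set with a small error was therefore favoured in both, and the shares below are not overlaps of separate tests. In 93 probe sets (29.2% of the Na2S calls, 0.915% of the water calls) des1 differed in the same direction under both waterings. In 182 (57.2% and 1.79%) the direction was opposite. The remaining 43 (13.5%) were not called under water. Counted apart, of 133 rises 104 (78.2%) were opposite to water and 13 the same, whereas of 185 falls 80 (43.2%) were the same and 78 (42.2%) opposite. The opposite rises had a median difference of 0.61 under Na2S against -1.44 under water, and the opposite falls of -0.56 against 1.90. The difference between the 2 waterings was tested itself, as an interaction in the same limma fit. It passed for 121 of the 133 rises and 148 of the 185 falls, and for 37.7% of all probe sets. The interaction contains the Na2S difference by which these probe sets were chosen. Their higher share was therefore favoured in advance and is no separate result.

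**Figure D1:**
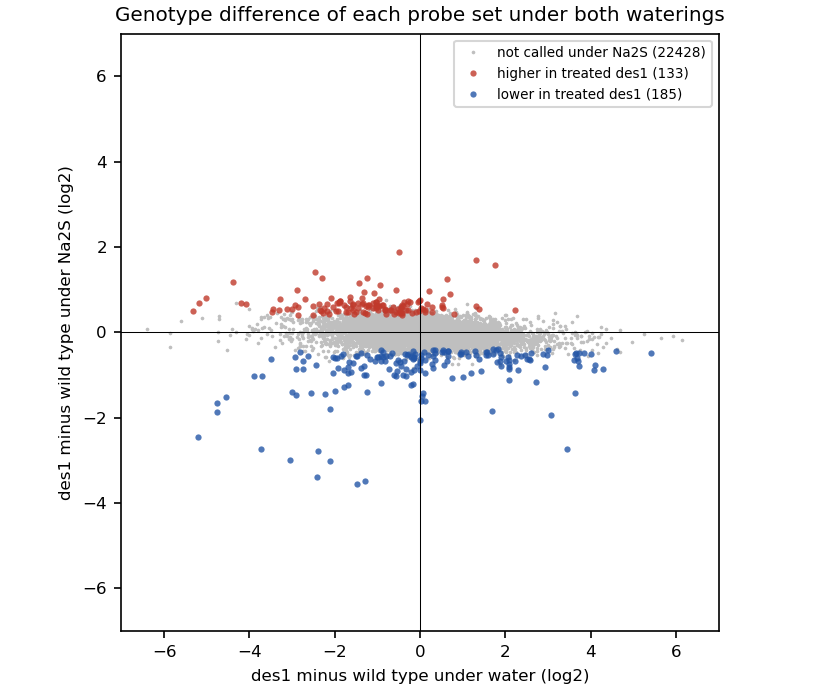
Each point is 1 probe set, placed by its genotype difference under water (x axis, log2) and under Na2S (y axis, log2), both as des1 minus wild type on equal scales. The 22746 points are flattened along the x axis; the 133 called rises (red) lie mostly at the left, where des1 was lower under water, and the 10 called falls beyond 2 log2 units (blue) lie on both sides of 0 and on it.

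The largest named differences were falls, led by AT2G20870 and AT5G22430. Family names given with a locus code are background from common Arabidopsis annotation. AT2G20870 encodes a predicted cell wall protein. Its values were 9.22, 9.03 and 9.29 in treated wild type and 5.36, 5.87 and 5.66 in treated des1, so the 3 des1 arrays lay far below all 3 wild type arrays. The difference was -3.55 ± 0.15 SE, 11.7-fold, with n = 3 per group (limma adjusted p = 1.38e-10). AT5G22430, of the pollen Ole e 1 family of secreted proteins, read 7.50, 7.27 and 7.77 in treated wild type and 3.92, 4.26 and 3.92 in treated des1. It was 11.2-fold lower in des1 (-3.48 ± 0.16, limma adjusted p = 3.57e-10), again with a wide gap between the groups. Both genes were lower in des1 under water too, but by less (-1.48 and -1.30). The interaction was -2.07 ± 0.21 for AT2G20870 (limma adjusted p = 3.2e-07) and -2.18 ± 0.22 for AT5G22430 (3.52e-07). The des1 means were 5.28 under water and 5.63 under Na2S for AT2G20870, and 3.95 and 4.03 for AT5G22430. The wild type means were 6.76 and 9.18 for AT2G20870, and 5.25 and 7.51 for AT5G22430. AT5G55720, of the pectin lyase family, was a dimmer case of the same order, with -1.0 under Na2S and -0.40 under water. Its des1 means, 3.28 under Na2S and 3.49 under water, were below the lower quartile of every array, where RMA compresses differences. Its interaction (-0.60 ± 0.21, limma adjusted p = 0.0298) was lost when single arrays of several groups were left out, with adjusted p up to 0.0894.

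Other falls passed under both waterings with an interaction that did not pass. AT1G62500, a member of the seed storage and lipid transfer protein superfamily, read 6.59, 6.70 and 6.66 in treated wild type against 3.58, 3.65 and 3.76 in treated des1. The difference was -2.99 ± 0.14 (7.93-fold, limma adjusted p = 3.91e-10) under Na2S and -3.05 ± 0.14 under water, and the interaction was 0.06 ± 0.20 (limma adjusted p = 0.848). The des1 means, 3.66 under Na2S and 3.67 under water, were below the lower quartile of every array (3.69 to 3.90). RMA compresses differences there and the file gives no detection call, so the fold may be understated, and the interaction compares 2 differences that share this low end. AT5G33370 encodes a GDSL lipase known as cutin synthase 2, which helps to build the cutin polyester of the cuticle. It read 6.94, 6.62 and 7.07 in treated wild type and 4.11, 4.05 and 4.11 in treated des1. It was 6.90-fold lower in des1 (-2.79 ± 0.16, limma adjusted p = 5.17e-09), against -2.39 under water, with an interaction of -0.39 ± 0.22 that did not pass (limma adjusted p = 0.189). AT3G28500, an acidic P2 protein of the large cytosolic ribosomal subunit, read 8.34, 8.47 and 8.62 in treated wild type and 7.06, 7.19 and 6.97 in treated des1. It differed by -1.40 ± 0.11 under Na2S and by -1.24 under water, and the 2 genotypes did not overlap under either. AT3G05600, an epoxide hydrolase (-1.29 under Na2S and -1.79 under water), the beta-glucosidase BGLU25 (-0.78 and -0.46), AT3G06220 (-0.87 and -0.73) and AT4G34400 (-0.72 and -0.56) also passed both genotype tests, and their interactions did not pass. So did AT5G07340, of the calreticulin family (-0.68 and -0.83), and AT5G15510, of a family of spindle proteins (-0.55 and -0.71). AT5G07340 lost its Na2S call without wild type Na2S replicate 1 or des1 Na2S replicate 2 (limma adjusted p up to 0.0842), and AT5G15510 without wild type Na2S replicate 2 or des1 Na2S replicate 1 or 2 (up to 0.0656). The treated des1 means of AT3G06220 (3.56), AT4G34400 (3.68) and AT5G15510 (3.32) were below the lower quartile too, and so were the untreated des1 means of these 3 genes, so the same limit holds for their folds and interactions. For AT3G05600 the untreated des1 mean (3.53) was below it, which limits its water difference and its interaction. An interaction that misses the threshold does not show that 2 differences are equal.

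In 58 of the 185 falls des1 was also called lower under water and by more, and those named genes among them whose interaction passed are given here. AT2G33850 read 7.43, 7.33 and 7.23 in treated wild type and 5.64, 5.21 and 5.56 in treated des1, a difference of -1.86 ± 0.13 (limma adjusted p = 1.42e-07) against -4.76 under water. In this gene treated des1 lay between untreated des1 (mean 3.78) and treated wild type (mean 7.33). AT4G29030 differed by -2.75 ± 0.21 and by -3.74 under water, the thaumatin-family gene AT2G28790 by -1.47 and -2.91, and AT5G20740, an inhibitor of invertase or pectin methylesterase, by -1.45 and -2.22. AT4G22490, of the lipid transfer protein family, differed by -1.41 and -3.01, the thaumatin-like ATLP-1 by -1.03 and -3.69, and the defensin-like LCR69 by -1.02 and -3.88. AT5G55180, a glycoside hydrolase of the family that cuts beta-1,3-glucan, differed by -0.96 and -2.04, and the endoglucanase GH9B13 by -0.89 and -1.79. In each of these 9 genes the interaction passed, from 0.77 (AT5G20740) to 2.90 (AT2G33850), and each kept its call under Na2S whichever array was left out. AT4G02800 (-0.95 and -1.68) belonged here as well, but it lost its call under Na2S without wild type Na2S replicate 1 or 2 or des1 Na2S replicate 2 or 3, with limma adjusted p up to 0.0842.

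A further set of falls appeared under Na2S with no call under water. RXF26, a GDSL-type lipase gene, read 4.62, 5.12 and 5.31 in treated wild type and 3.3, 3.45 and 3.49 in treated des1. Its difference was -1.60 ± 0.15 under Na2S (limma adjusted p = 2.98e-06) and 0.02 ± 0.15 under water, with an interaction of -1.62 ± 0.21 (4.51e-06). Treated wild type was the one group that stood high: untreated wild type read 3.63, 3.55 and 3.77 and untreated des1 3.49, 3.81 and 3.71. The same picture held for AT1G02813, whose protein has a domain of unknown function, with 5.20, 4.53 and 5.13 in treated wild type, 3.20, 3.46 and 3.38 in treated des1, and means of 3.26 and 3.38 in the untreated groups. Its difference under Na2S was -1.61 ± 0.15 (limma adjusted p = 4.06e-06). AT1G47980, a desiccation-like protein gene, differed by -1.42 ± 0.18, the defensin-like LCR66 by -0.94 ± 0.16 and ATA27, a beta-glucosidase gene known from anthers, by -0.80 ± 0.12. The interaction passed in all 5 genes, from -1.73 (AT1G02813) to -0.73 (ATA27). These were dim transcripts. The treated des1 means of RXF26 (3.41), AT1G02813 (3.35), LCR66 (3.14) and ATA27 (2.97) were below the lower quartile of every array, where RMA compresses differences and the file gives no detection call. The untreated means of both genotypes lay below it too in these genes, for example 3.65 and 3.67 for RXF26. The same limit therefore holds for their missing water calls and their interactions. Of 15 marker genes of flowers and bolting 0 were measured, so the part of floral tissue in the ATA27 difference was not tested.

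The falls of the last kind were opposite to water. AT4G23680, of the major latex protein family, read 6.44, 6.23 and 6.12 in treated wild type and 4.54, 4.06 and 4.36 in treated des1, a difference of -1.94 ± 0.13 (limma adjusted p = 4.27e-08). Under water it had been higher in des1, by 3.08, and the interaction was -5.03 ± 0.18 (6.82e-13). The symbol CHI here names AT2G43570, a chitinase family gene and not the flavonoid enzyme. It read 7.12, 7.37 and 7.25 in treated wild type and 5.61, 5.94 and 5.94 in treated des1, that is -1.42 ± 0.11 under Na2S (limma adjusted p = 5.19e-07) against 3.62 under water. The calmodulin-like gene CML41 differed by -0.88 and 4.07, the lipase-family gene AT2G38180 by -0.95 and 1.19, AT1G13990 by -1.06 and 0.75, and UGT84A3, a glucosyltransferase of phenolic acids, by -0.76 and 0.57. In these 6 genes treated des1 was the lower of the treated groups, with no overlap, and untreated des1 the higher of the untreated ones, again with no overlap (as in 50.2% of all probe sets under water).

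**Figure D2:**
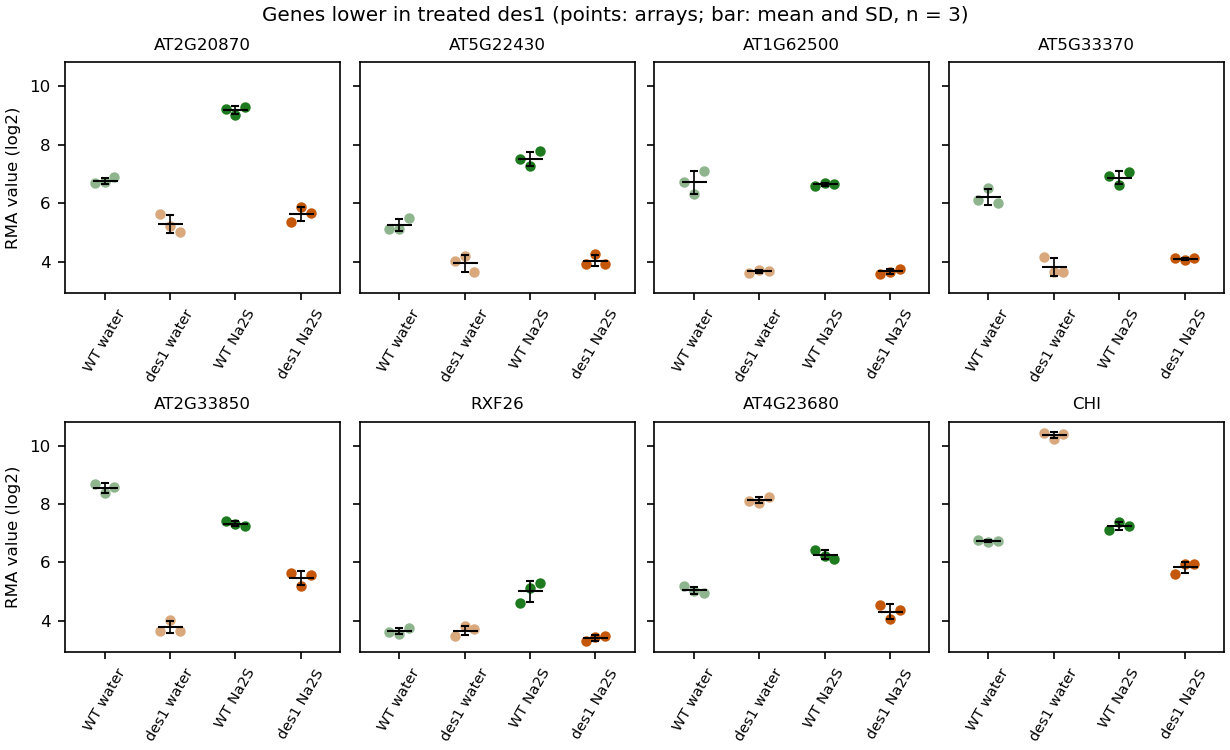
Log2 RMA values of 8 genes that were lower in treated des1, by group; points are single arrays and bars the mean and SD of 3. AT2G20870 and AT5G22430 were highest in treated wild type (means 9.18 and 7.51), AT1G62500 and AT5G33370 were low in des1 under both waterings, AT2G33850 was lowest in untreated des1, RXF26 stood high in treated wild type alone, and AT4G23680 and CHI changed direction between waterings.

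Among the named rises the defensins stood first. PDF1.2 encodes an antifungal peptide widely used as a marker of the joint jasmonate and ethylene response. It read 7.91, 8.24 and 8.24 in treated wild type and 9.72, 9.66 and 9.73 in treated des1. The difference was 1.57 ± 0.13 (2.98-fold, limma adjusted p = 1.17e-06) under Na2S and 1.77 ± 0.13 under water, with an interaction of -0.20 ± 0.19 that did not pass (0.474). PDF1.2b read 7.69, 8.00 and 8.55 against 9.95, 9.82 and 9.53, a difference of 1.69 ± 0.21 (limma adjusted p = 0.00014) under Na2S and 1.32 under water. Its probe set name marks probes that may also match other transcripts, so the pair may share signal. EIN3, the central transcription factor of ethylene signalling, differed by -0.06 ± 0.094 and did not pass. AT1G04770, known as SDI2 and induced when plants lack sulfur, read 7.89, 8.06 and 7.86 in treated wild type and 8.71, 8.90 and 8.91 in treated des1. The groups did not overlap, and the difference of 0.90 ± 0.10 (1.87-fold, limma adjusted p = 5.9e-05) was near the 0.71 under water (interaction 0.20 ± 0.15, adjusted p = 0.344).

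Further rises shared their direction with water. AT2G23910, an oxidoreductase related to cinnamoyl-CoA reductase, read 4.51, 4.93 and 4.43 in treated wild type and 5.93, 6.10 and 5.58 in treated des1, with 1.25 ± 0.17 under Na2S and 0.63 under water. The dehydrin gene LTI30, induced by cold and drought, differed by 0.79 ± 0.15 under Na2S and by 0.54 under water. It lost its call under Na2S without wild type Na2S replicate 2 or des1 Na2S replicate 3 (limma adjusted p up to 0.0642). BHLH101, a transcription factor of the iron deficiency response, differed by 0.54 ± 0.12 and by 1.37 under water (interaction -0.83 ± 0.17, adjusted p = 0.000874). Its call was lost without wild type Na2S replicate 2 or 3 or des1 Na2S replicate 1 or 3, with adjusted p up to 0.187. AT1G78450 (0.58 and 0.55) and AT3G52480 (0.59 and 0.52) had nearly the same value under both waterings, but AT1G78450 lost its Na2S call without wild type Na2S replicate 1 or any treated des1 array (limma adjusted p up to 0.111). AT3G52480 lost it without wild type Na2S replicate 1 or 2 or des1 Na2S replicate 1 (up to 0.0845).

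The rises that were opposite to water were the most numerous kind. AT5G61590 encodes DEWAX, an AP2/ERF transcription factor that represses wax synthesis in the leaf cuticle. It read 7.61, 7.92 and 8.09 in treated wild type and 9.48, 9.14 and 9.23 in treated des1, a rise of 1.41 ± 0.15 (2.66-fold, limma adjusted p = 1.5e-05). Under water it was lower in des1 (-2.47 ± 0.15), with 10.29, 9.95 and 10.43 in wild type against 7.73, 7.92 and 7.61 in des1. The aspartyl protease gene AT5G19120 read 7.30, 7.31 and 7.22 in treated wild type and 8.55, 8.50 and 8.58 in treated des1, and its differences of 1.27 ± 0.11 under Na2S and -1.25 ± 0.11 under water had nearly the same size with opposite sign. AT5G48490, of the lipid transfer protein family, read 10.45, 10.45 and 10.47 in treated wild type and 11.35, 11.26 and 11.18 in treated des1. That rise of 0.81 ± 0.11 (limma adjusted p = 0.00033) stood against -5.01 under water, where des1 read 5.61, 5.48 and 5.85. The interaction was 5.82 ± 0.15, and in this gene untreated des1 was the group that stood apart.

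The other named opposite rises, out of 104 in all, ran from 0.44 to 1.12 under Na2S. They included AT1G70270 (1.12 under Na2S and -0.94 under water), the glucosyltransferase gene AT3G55710 (1.00 and -0.57), AT3G28220 (0.95 and -1.31), the pectin methylesterase gene ATPMEPCRB (0.91 and -1.07), the aspartic protease gene NANA (0.78 and -2.71), AT3G46490 (0.74 and -1.87), the F-box gene AT1G23390 (0.74 and -1.87) and the expansin-like gene EXLA1 (0.44 and -1.24). AT5G58390, of the peroxidase family (0.81 and -1.37), AT3G15450 (0.79 and -3.27) and AT3G06070 (0.71 and -1.04) also had opposite signs. In all 11 the interaction passed, which called differences of opposite sign favour in advance. Of these, AT5G58390 and AT3G15450 lost the Na2S call without wild type Na2S replicate 1 or any treated des1 array (limma adjusted p up to 0.102 and 0.153). AT3G06070 lost it without wild type Na2S replicate 2 or des1 Na2S replicate 1 or 3 (up to 0.0755), and EXLA1 whichever of the 6 treated arrays was left out (up to 0.154). Of the 16 rises with no call under water, the named ones were those of the glutaredoxin gene AT2G47880 (0.72 ± 0.10 under Na2S and -0.22 under water), the expansin-like gene EXLB1 (0.47 and -0.10) and AT5G06330 (0.74 and -0.29). AT2G47880 read 6.81, 6.79 and 6.94 in treated wild type and 7.61, 7.58 and 7.51 in treated des1, and it kept its call whichever array was left out. The EXLB1 call was lost without wild type Na2S replicate 1 or 3 or des1 Na2S replicate 1 or 2 (limma adjusted p up to 0.107). AT5G06330 stood at the threshold (limma adjusted p = 0.0488) and was called in 1 of the 12 fits with an array left out.

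**Figure D3:**
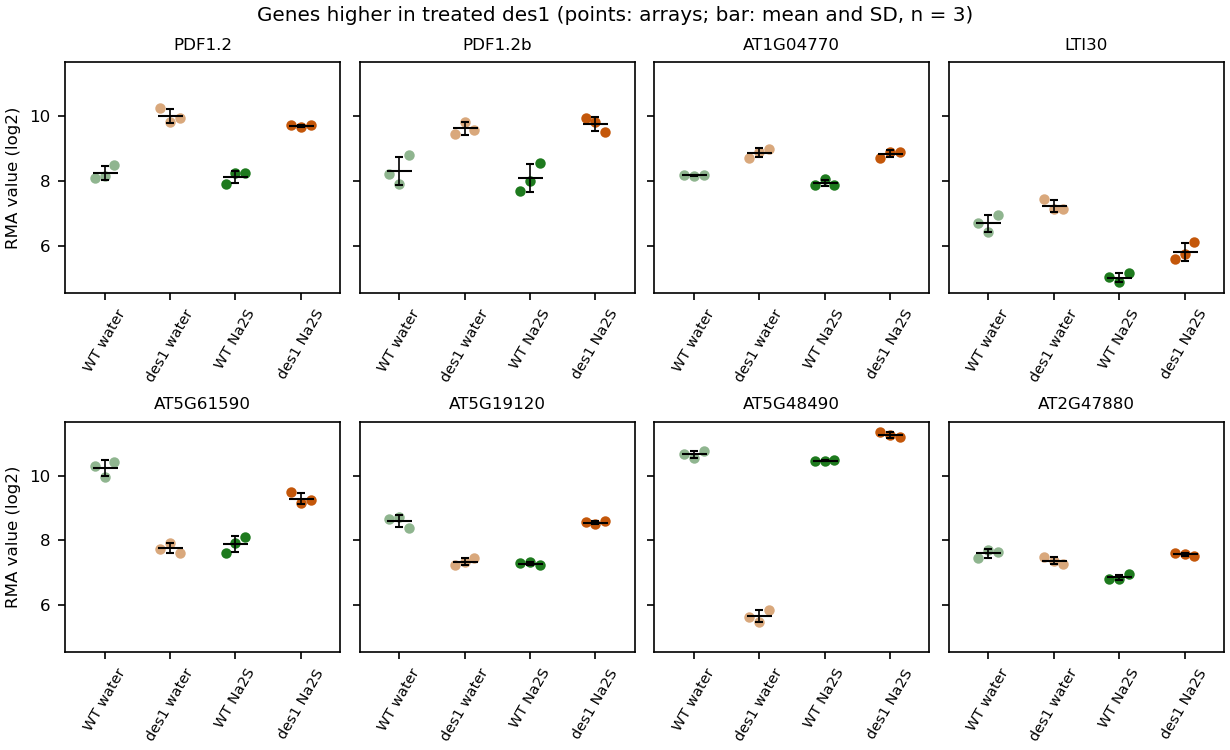
Log2 RMA values of 8 genes that were higher in treated des1, by group; points are single arrays and bars the mean and SD of 3. PDF1.2, PDF1.2b, AT1G04770 and LTI30 were higher in des1 under both waterings, AT5G61590 (DEWAX), AT5G19120 and AT5G48490 were lower in des1 under water and higher under Na2S, and AT2G47880 was called under Na2S and not under water.

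Pathway lists were read gene by gene, since 128 of 728 listed loci had a probe set with 1 gene here, and the lists were drawn up with results of these arrays known. In all 9 of the 128 loci (7.03%) were called under Na2S, beside 1.4% of all probe sets, and 95 under water. The 9 were PDF1.2, PDF1.2b, LCR69, AT5G33370, AT5G61590, AT1G04770, LTI30, DFR and BHLH101. Among 5 measured cuticle genes AT5G33370 fell and AT5G61590 rose. The wax ester synthase gene WSD1 (0.54 ± 0.14, limma adjusted p = 0.0588), the AP2 factor gene SHN3 (0.05 ± 0.14) and AT5G07580 (0.27 ± 0.11) did not pass. Of 9 ethylene and defensin genes 2 rose and 1 fell. The median of the 9 was 0.06, beside -0.01 over all probe sets. The list counts that follow stand beside shares of all probe sets. Under Na2S 1.4% were called and 11.4% had an unadjusted limma p under 0.05, and under water 44.7% were called. Listed genes come from the 13513 probe sets with 1 gene, of which the same fit called 149 under Na2S and 5471 under water. A list count near these shares is no result about that list.

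Few sulfur genes were measured. Among 5 of 31 listed genes of sulfate assimilation and cysteine metabolism 0 passed, and 0 had an unadjusted p under 0.05. The ATP sulfurylase genes APS3 and APS4, which activate sulfate, differed by 0.00 ± 0.094 and -0.20 ± 0.11. Sulfite reductase SIR differed by -0.09 ± 0.11, the cysteine desulfurase gene CPNIFS by -0.02 ± 0.12 and cystathionine beta-lyase CBL by -0.13 ± 0.12. The 95% intervals of the 5 genes together ran from -0.42 to 0.25, so a 2-fold difference lies outside each of them. Of 20 listed sulfur deficiency genes 2 were measured: AT1G04770 rose, and BGLU28 differed by -0.12 ± 0.13 with means of 3.39 and 3.27, which are below the lower quartile. All 5 antioxidant genes (range -0.19 to 0.16) and all 3 glucosinolate genes (range -0.18 to 0.03) missed the threshold, with 0 at an unadjusted p under 0.05 in either list.

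Lists of autophagy, pigment, photosynthesis and senescence genes held 1 call under Na2S. Among 16 autophagy genes 0 passed limma under Na2S and 2 had an unadjusted p under 0.05, beside 1.4% and 11.4% of all probe sets. Under water 9 of the 16 rose and 1 fell, beside 22% and 22.6% of all probe sets. The autophagy differences under Na2S ran from -0.38 ± 0.13 (ATG8G) to 0.43 ± 0.17 (ATG8E), with a median of -0.04. These 2 genes had the opposite sign under water (0.86 and -0.45). Of 7 flavonoid genes all 7 rose under water, with a median of 2.87, and under Na2S 1 fell and the median was -0.06. That gene was DFR, dihydroflavonol reductase, at 4.21, 4.21 and 4.37 in treated wild type and 3.51, 3.73 and 4.05 in treated des1 (-0.50 ± 0.12, limma adjusted p = 0.0441). The DFR call was kept in 2 of the 12 fits with an array left out, those without des1 Na2S replicate 3 or des1 water replicate 1, and adjusted p reached 0.221. All 4 chlorophyll synthesis genes fell under water, and under Na2S 0 passed, with 0 at an unadjusted p under 0.05 and a range from -0.04 to 0.08. Among 8 nuclear photosynthesis genes 0 passed, with 0 at an unadjusted p under 0.05 and 95% intervals from -0.26 to 0.35 in all. Of 4 senescence genes 0 passed and 2 had an unadjusted p under 0.05, WRKY53 (0.54 ± 0.14, limma adjusted p = 0.0739) and WRKY6 (0.38 ± 0.14, adjusted p = 0.273). Of 69 probe sets of plastid-encoded genes 0 were called under Na2S, beside 1.4% of all probe sets. Under water 36.2% of them were called, beside 44.7% of all probe sets. These plastid probe sets are among those with 1 locus. In that set the share called under water ran from 35.1% (chromosome 2) to 42.9% (chromosome 5) on the nuclear chromosomes.

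Hormone and growth lists held few calls. Among 5 jasmonate genes 0 passed and 2 had an unadjusted p under 0.05, namely JMT (-0.30 ± 0.12), the methyltransferase that makes methyl jasmonate, and the thionin gene THI2.1 (-0.40 ± 0.17). Of 4 salicylic acid genes 0 passed and 1 had an unadjusted p under 0.05. Of the 5 genes of the abscisic acid, cold and dehydration list LTI30 was called while COR15A (-0.37 ± 0.17), COR15B (-0.16 ± 0.13), COR47 (0.08 ± 0.12) and LEA4-5 (-0.04 ± 0.22) were not. Of 12 wall loosening genes 0 passed, and 6 had an unadjusted p under 0.05. Among these EXPA16 (-0.63 ± 0.16, limma adjusted p = 0.0636) and XTH19 (-0.65 ± 0.17, adjusted p = 0.0803) came nearest on the low side. The list as a whole lay on both sides of 0, from -0.65 to 0.44 with a median of -0.1.

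**Figure D4:**
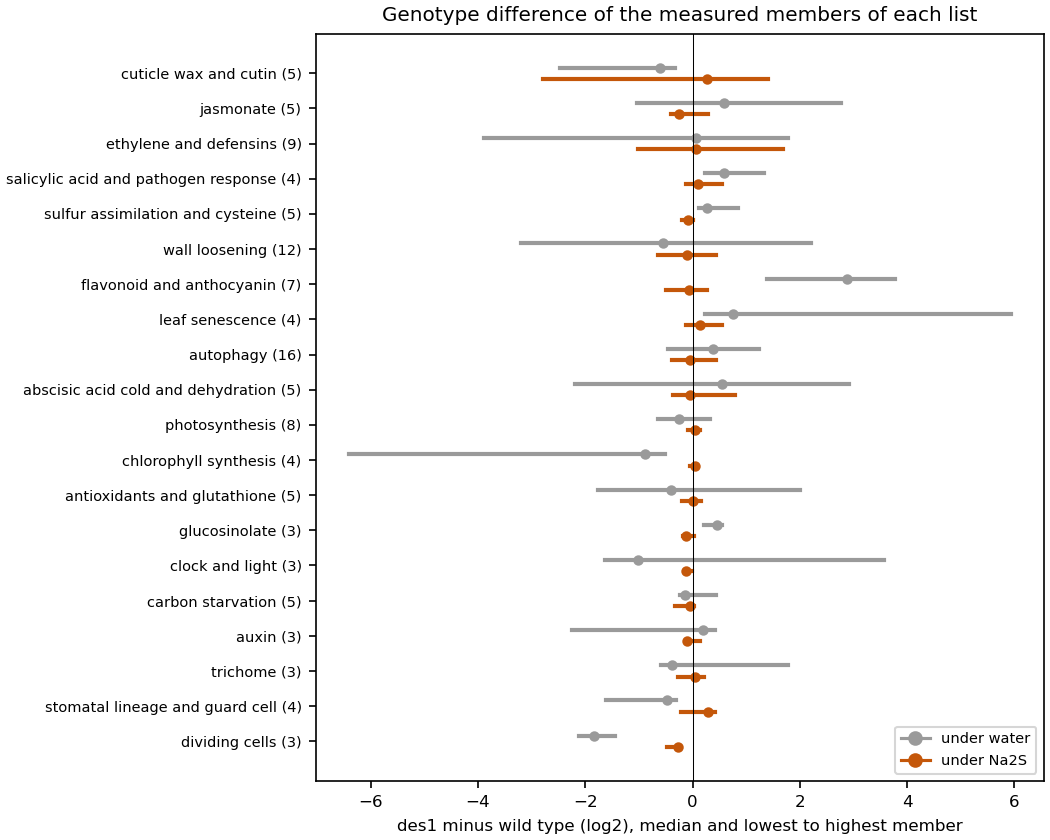
For each pathway or marker list with at least 3 measured members (number in brackets) the dot is the median and the line the lowest to highest genotype difference, des1 minus wild type in log2 units, under water (grey) and under Na2S (orange). The cuticle and the ethylene and defensin lists keep wide ranges under Na2S (-2.79 to 1.41 and -1.02 to 1.69), while chlorophyll synthesis (-0.04 to 0.08) and photosynthesis (-0.08 to 0.13) are narrow.

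Gene families were recognised by their symbols, so members known here by a locus code alone were not counted. Of 15 defensin genes 2 rose and 2 fell, the pairs PDF1.2 with PDF1.2b and LCR69 with LCR66, so members of this family went both ways. Of 19 expansin genes 2 rose, EXLA1 and EXLB1, neither of which kept its call in every fit with an array left out. Of 50 beta-glucosidase and serine carboxypeptidase genes 2 fell, BGLU25 and ATA27, which is 4% beside 1.4% of all probe sets. The 50 UGT glycosyltransferases with such a symbol held 1 call, the fall of UGT84A3. The called rise of the glucosyltransferase gene AT3G55710 lies outside this count. Of 24 cytochrome P450 genes, 13 glutathione transferases, 10 xyloglucan endotransglucosylases, 9 tubulins, 7 WRKY factors and 15 ribosomal protein genes 0 passed in each. Those at an unadjusted limma p under 0.05 numbered 3, 2, 4, 1, 4 and 1 in that order, beside 11.4% of all probe sets. The called fall of AT3G28500, a ribosomal protein gene without such a symbol, lies outside the 15. Under water 8 of the 9 tubulins had been lower in des1, beside 22.6% of all probe sets.

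Marker genes of cell types were not called by limma under Na2S. The measured ones were 3 of dividing cells (1 at an unadjusted p under 0.05), 4 of the stomatal lineage (2), 3 of trichomes (1), 2 of mesophyll (0), 2 of roots (0), and 1 each of epidermis and phloem (0). Xylem, flower and seed markers were not measured. In bulk leaves fewer cells of a type and less RNA per cell cannot be told apart. The 3 genes of dividing cells all lay below 0, with PRL, a replication licensing factor, at -0.21 ± 0.11 and the mitotic kinases AUR1 and AUR2 at -0.28 ± 0.14 and -0.47 ± 0.16 (limma adjusted p = 0.214 for AUR2). In the stomatal lineage MUTE (0.41 ± 0.11, limma adjusted p = 0.0832) and STOMAGEN (0.36 ± 0.14) lay above 0 and SPCH (-0.22 ± 0.16) below it. The epidermal gene CR4 differed by -0.06 ± 0.12, beside the called differences of the surface genes AT5G33370 and AT5G61590. Whether a shift in epidermal or dividing cells had a part in the wall and cuticle genes was not tested.

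The count of called differences varied with the array left out. Leaving out a treated array also makes its group smaller, so the part of that array and of the smaller group cannot be told apart. Without wild type Na2S replicate 2 the count was 186, without des1 Na2S replicate 1 it was 189, without des1 Na2S replicate 2 it was 198, without wild type Na2S replicate 1 it was 205, without des1 Na2S replicate 3 it was 207, and without wild type Na2S replicate 3 it was 273. Of the 318 calls 143 were made in each of the 12 fits with an array left out, 50 rises and 93 falls, with a smallest size of 0.53. All 51 calls of at least 2-fold (0.224% of probe sets) were among them. Of the 143 there were 54 in the same direction as water, 70 opposite and 19 not called under water.

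**Figure D5:**
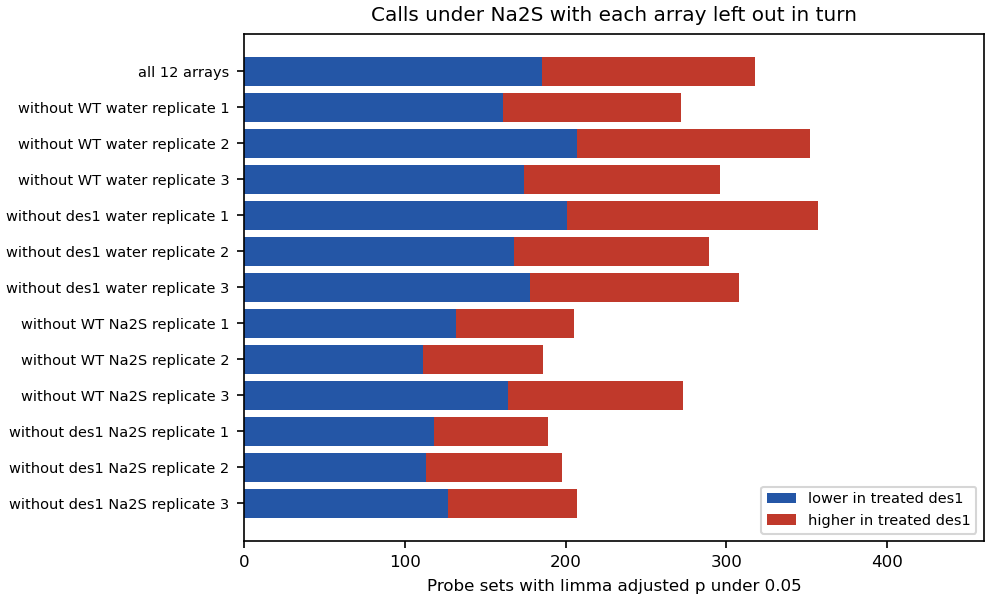
Number of probe sets with a limma adjusted p under 0.05 between the treated genotypes, split into lower (blue) and higher (red) in des1, with all 12 arrays and with each array left out. The count of 318 ran from 186 (without wild type Na2S replicate 2) to 357 (without des1 water replicate 1).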

How the data were processed

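The authors deposited 1 table of log2 values. It was made with RMA, the robust multi-array average, in affy, per the submitters' processing notes; versions are not given in the sources used here. RMA corrects background, quantile-normalizes and summarises probes, which removes shifts shared by most transcripts and compresses dim differences. Of 22810 probe sets 64 controls were left out. The annotation pairs 13513 of the 22746 tested with 1 gene, 503 with several and 8730 with none listed; 13436 were matched to a locus in a TAIR10.1 gene table, used for names only. Groups came from the titles. The 12 arrays were fitted in limma 3.58.1 (R 4.3.3; lmFit, eBayes) as 4 group means, with Benjamini-Hochberg adjustment and a threshold of 0.05; errors are limma standard errors. The fit was tested on simulated data. Arrays give no read depth, and their number limits the precision.

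Named genes were, among called probe sets of 1 gene and 1 locus without overlap of the groups, the 20 largest rises and 25 largest falls, up to 4 called members of each list or family, the 5 largest in each combination of directions with water, and the 5 of each direction with the smallest interaction; list members that were not called are given with their values. The members, lists and rules were chosen with earlier results of these data known. Alternatives were quantile normalization again, median centring, leaving out probe sets below the 40th percentile of mean level, a trended robust variance, array weights, the compared arrays alone, a replicate block, probe sets of 1 gene alone, and each array left out.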

Additional observations from a re-analysis of the deposited data

Results flagged for a closer look

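In 43 of the 59 named genes the genotype difference under Na2S differed from that under water by the interaction test in limma. The genes were chosen by their Na2S difference, which is part of the interaction, so that share is no separate result. Each value below is the difference under Na2S minus the difference under water, in log2 units. Genes higher in treated des1 and lower in untreated des1 had AT5G48490 5.82, AT3G15450 4.06, AT5G61590 (DEWAX) 3.88, NANA 3.48, AT3G46490 2.61, AT1G23390 2.61, AT5G19120 2.52, AT3G28220 2.26, AT5G58390 2.18, AT1G70270 2.06, ATPMEPCRB 1.98, AT3G06070 1.75, EXLA1 1.68 and AT3G55710 1.57. Genes lower in treated des1 and higher in untreated des1 had CHI -5.04, AT4G23680 -5.03, CML41 -4.96, DFR -4.14, AT2G38180 -2.14, AT1G13990 -1.82 and UGT84A3 -1.33.

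Genes lower in des1 under both waterings, but less so under Na2S, had AT2G33850 2.90, LCR69 2.86, ATLP-1 2.67, AT4G22490 1.60, AT2G28790 1.44, AT5G55180 1.08, AT4G29030 0.99, GH9B13 0.90, AT5G20740 0.77 and AT4G02800 0.73. Those lower by more under Na2S had AT5G22430 -2.18, AT2G20870 -2.07 and AT5G55720 -0.60. BHLH101, higher in des1 under both, had -0.83.

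Genes without a call under water had AT1G02813 -1.73, RXF26 -1.62, AT1G47980 -1.50, LCR66 -1.05, ATA27 -0.73, AT5G06330 1.03, AT2G47880 0.94 and EXLB1 0.57. The interactions of AT5G55720 and AT4G02800 no longer passed when single arrays were left out, with limma adjusted p up to 0.0894 and 0.135.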

How the results depend on the processing

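Under Na2S the count of 318 was 335 after quantile normalization again, 313 after median centring, 320 without dim probe sets (of 13649), 388 with a trended robust variance and 221 with the compared arrays alone. It moved to 838 with array weights, which among the treated arrays ran from 0.386 (wild type Na2S replicate 1) to 2.39 (wild type Na2S replicate 2), and to 134 with probe sets of 1 gene alone, where 13513 were tested; the cause of the first was not tested. With arrays left out it ran from 186 to 357. Under water the 1-gene count was 5397 of 13513, and with arrays left out the count ran from 9350 to 10436. The interaction gave 4472 of 13513 and from 7937 to 8571. Each called probe set kept its sign wherever it was tested. The compared arrays alone lost 10 of the 59 named calls: AT5G06330, AT3G06070, LCR66, EXLB1, EXLA1, DFR, BHLH101, AT1G78450, AT3G52480 and AT5G07340. DFR was also lost after median centring, with the trended variance and with probe sets of 1 gene alone, and AT5G06330 with the last.

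The replicate numbers did not pair the samples: deviations of same-numbered treated arrays correlated at 0.162, 0.004 and -0.188. With the replicate number as a block the counts were 274 under Na2S, 10025 under water and 8401 for the interaction, and AT5G06330 and EXLA1 were no longer called.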

Other observations

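Genes with 1 locus that were called between the treated genotypes lay on all 5 nuclear chromosomes. The share called was 1.19% on chromosome 1, 0.818% on chromosome 2, 1.13% on chromosome 3, 1.07% on chromosome 4 and 1.26% on chromosome 5, which carries DES1. Among these genes 1 pair of direct neighbours was called, AT4G29020 and AT4G29030 on chromosome 4, noticed after the values were seen. The neighbours moved apart under Na2S, with AT4G29020 higher in des1 by 0.70 and AT4G29030 differing by -2.75 on the log2 scale, while both were lower in des1 under water (-5.18 and -3.74). The rise of AT4G29020 was called by limma in 4 of the 12 fits with an array left out, with adjusted p up to 0.179, and the fall of AT4G29030 in all 12.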
